A study of Schizosaccharomyces pombe with 3 samples.

Results

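The region described is the inner flank of the subtelomeres of fission yeast, Schizosaccharomyces pombe: the stretch from 50 to 100 kb inside each of the 4 array ends of chromosomes I and II. Its members are the genome probes that start in those 4 stretches by the position in their name. They number 644 of the 41551 genome probes on the array, with 166 at the left end of chromosome I, 167 at its right end, 159 at the left end of chromosome II and 152 at its right end. Neighbouring probes stand for tiles of 300 bp, so they share fragments of the same DNA and are not replicates.

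Cohesin, of which Psc3 is a subunit, is the protein ring that holds sister chromatids together. In fission yeast the outermost part of each subtelomere is packed as heterochromatin. It carries methylation of histone H3 at lysine 9, written by Clr4 and bound by Swi6, and Swi6 recruits cohesin. Toward the centromere this heterochromatin gives way to a transition zone of weakly expressed, often species-specific genes, and then to the arm proper.

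The study measured where GFP-tagged Psc3 lay by chromatin immunoprecipitation with an antibody against GFP, followed by hybridisation to a two-colour tiling array. There are 3 arrays, 1 per group. The cdc10-v50 cells have a heat-sensitive form of Cdc10, the transcription factor behind entry into S phase. They grew at 26 °C and were then held at 35 °C for 4 h, which arrests them in G1, and so differ from the other groups in allele, temperature and cycle stage at once. The clr4d cells lack Clr4 and grew in rich medium at 30 °C, as did the wild-type cells, which carry the alleles leu1-32, ade6-216 and mat1Msmto and the tagged gene Psc3-GFP::kanMX. The titles of both mutants name Psc3-GFP as well. Their labels otherwise give the mutation alone, and the rest of their genotype is not stated. ChIP DNA carried Cy5 and input DNA Cy3 on every array, with no dye swap.

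Values are log2 of Cy5 over Cy3 processed signal, centred on the median genome probe of each array, so that 0 is the typical probe and 1 is 2-fold above it. With 1 array per group no difference has an error between replicates, and no p-value is given. The SD given beside a value is the spread between probes of that stretch. Both mutant arrays were scanned at 20 bits and read with a later software version than wild type, whose scan had 16 bits, so genotype and scan cannot be told apart in any comparison with wild type. In wild type 45 of the 644 probes (6.99%) were saturated in Cy5, against 2273 probes (5.47%) of the whole array, and 0 were saturated in either mutant. At 41 of those 45 the measured wild-type ratio is only a minimum. The other 4 were saturated in Cy3 as well, and 1 further probe in Cy3 alone, so the ratio there has no such bound. Spots marked non-uniform were left out, 25 of the 644 in cdc10-v50, 0 in clr4d and 1 in wild type, and the scanner software marked the whole cdc10-v50 array for evaluation.

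Psc3 signal between 50 and 100 kb was high in cdc10-v50, intermediate in wild type and near the array's typical probe in clr4d. Over the 4 ends the median log2 ratio was 1.16 in cdc10-v50 (SD 0.81, 619 probes), 0.08 in clr4d (SD 0.63, 644 probes) and 0.58 in wild type (SD 0.60, 643 probes). The arms of the same arrays had medians of -0.04, -0.01 and -0.04 in the same order of groups. At least 2-fold enrichment was measured at 361 of 619 probes (58.3%) in cdc10-v50, where the background over arm probes was 5.96%. The same count was 51 of 644 (7.92%) in clr4d, beside a background of 8.1%, and 135 of 643 (21.0%) in wild type, beside 6.85%. In clr4d the share was thus at the background, and in the other groups it was several times higher.

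The flank lay between a more enriched outer part and a less enriched inner part in cdc10-v50 and in wild type. The outer 50 kb of the same ends had medians of 2.65 in cdc10-v50, 0.09 in clr4d and 1.82 in wild type. Much of this outer part was saturated on the wild-type array. Its peak from 0.6 to 52.5 kb at the right end of chromosome I held 110 saturated probes among 165. At 45 to 50 kb of the right end of chromosome II 0 of 17 were saturated. The value of 1.82 may thus be too low, and the size of its gap to cdc10-v50 and of the wild-type gradient cannot be read from it. Between 100 and 150 kb the medians were 0.38 in cdc10-v50, 0.11 in clr4d and 0.28 in wild type. No such gradient of the ratio was measured in clr4d, whose medians in the 3 zones lay between 0.08 and 0.11. Single channels of clr4d were not flat there. At 0 to 5 kb of the left end of chromosome I they stood at 2.64 (Cy5) and 2.40 (Cy3), in log2 over the channel's arm median. Wild-type Cy3 was -0.59 in that step. At 20 to 25 kb of the right end of chromosome I clr4d had -1.22 (Cy5) and -1.51 (Cy3). The flat clr4d ratio of the outer part thus does not by itself show a low ChIP signal. Within the flank, the part from 50 to 90 kb had medians of 1.34 in cdc10-v50, 0.06 in clr4d and 0.61 in wild type. The last 10 kb, from 90 to 100 kb, had 0.40 in cdc10-v50, 0.20 in clr4d and 0.32 in wild type. These pooled medians differed by less than the SD between probes, but single ends differed in both directions. At the left ends, 90 to 95 kb, cdc10-v50 minus wild type was -0.36 (SD 0.31) on chromosome I and 0.72 (SD 0.44) on II. At that distance clr4d minus wild type was -0.76 (SD 0.32) at the right of chromosome I and 0.51 (SD 0.60) at the left of II.

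To place each step against the arms, every 5-kb step was set beside 2364 arm windows of 5 kb on the same array. Arm level is here the 95th percentile of those windows, a log2 ratio of 0.82 in cdc10-v50, 0.88 in clr4d and 0.92 in wild type. Of the 40 steps, 39 held at least 5 probes. In cdc10-v50 25 of these 39 steps lay above arm level, in clr4d 2 and in wild type 7, and by construction 5.03% of arm windows do so in each group. The background thus corresponds to the count in clr4d and not to the counts in cdc10-v50 and wild type. A step mean of at least 2-fold was reached by 23 steps in cdc10-v50 (background 2.24%), 1 in clr4d (background 3.26%) and 6 in wild type (background 3.76%).

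**Figure D1:**
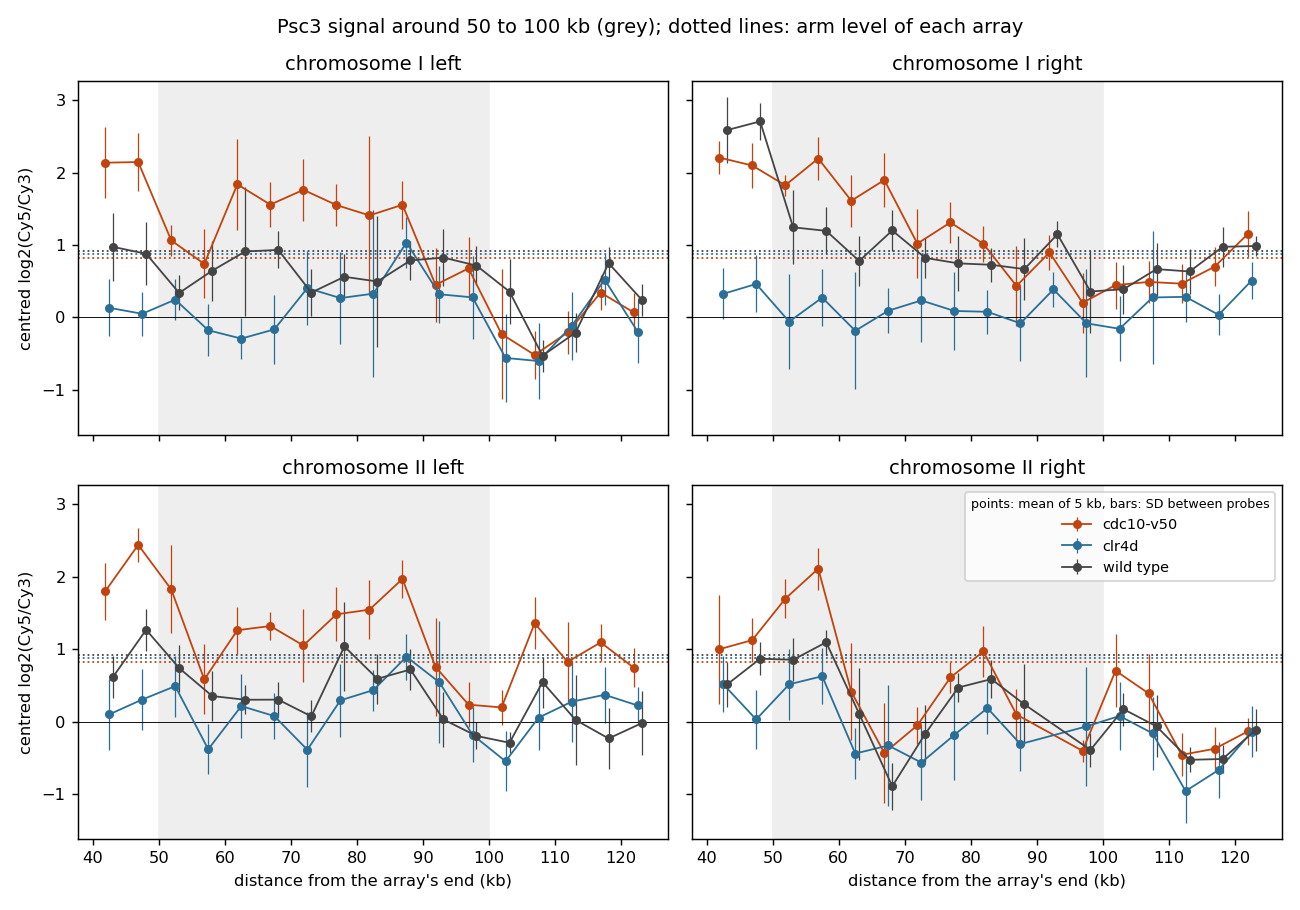
Mean centred log2(Cy5/Cy3) of each 5-kb step against distance from the array's end, for cdc10-v50, clr4d and wild type. Bars are the SD between probes, dotted lines the arm level of each array (0.82 in cdc10-v50, 0.88 in clr4d and 0.92 in wild type), and grey marks 50 to 100 kb. The cdc10-v50 points stay above their line to 90 kb at both left ends, apart from 55 to 60 kb, to 85 kb at the right end of chromosome I, and to 60 kb at the right end of chromosome II.

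At the left end of chromosome I the cdc10-v50 array was raised almost to 90 kb. Going inward from 50 kb, its 10 step means were 1.06, 0.74, 1.84, 1.56, 1.76, 1.55, 1.41, 1.56, 0.45 and 0.68. In clr4d they were 0.25, -0.18, -0.29, -0.16, 0.41, 0.27, 0.33, 1.04, 0.32 and 0.28. In wild type they were 0.34, 0.65, 0.91, 0.93, 0.34, 0.56, 0.50, 0.79, 0.83 and 0.72. Every wild-type step was above 0 but only 65 to 70 kb was above arm level (0.93, SD 0.26), and 60 to 65 kb was just under it (0.91, SD 0.89). In cdc10-v50 the signal first reached arm level at 55 kb, in a dip of 1 step (0.74, SD 0.48), was above it again from 60 kb, and was at or below it from 90 to 100 kb. From 45 kb inward the change there was the steepest between neighbouring steps of that end, with 1.56 (SD 0.33) at 85 to 90 kb and 0.45 (SD 0.51) at 90 to 95 kb. In clr4d and in wild type the first step inside 50 kb was already at arm level. The 85 to 90 kb step of clr4d stood out with 1.04 (SD 0.36), which is above 97.2% of its arm windows.

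The right end of chromosome I was the end with most signal in wild type. Going inward from 50 kb, its step means in cdc10-v50 were 1.83, 2.20, 1.61, 1.90, 1.02, 1.31, 1.02, 0.44, 0.90 and 0.20. In clr4d they were -0.06, 0.27, -0.18, 0.09, 0.24, 0.09, 0.08, -0.08, 0.39 and -0.08. In wild type they were 1.25, 1.20, 0.78, 1.20, 0.82, 0.75, 0.73, 0.67, 1.15 and 0.36. The cdc10-v50 signal stayed above arm level without a break to 85 kb, with 90 to 95 kb above it once more (0.90, SD 0.24). That of wild type stayed above it to 60 kb, with 65 to 70 kb and 90 to 95 kb above it as well. No clr4d step of the flank at this end was above arm level. Further in, cdc10-v50 was above it again at 120 to 125 kb (1.15, SD 0.31) and at 145 to 150 kb (1.27, SD 0.55). In the latter step clr4d was above its arm level too (1.81, SD 0.43). Just outside the flank, at 45 to 50 kb, wild type was higher than cdc10-v50, with 2.10 (SD 0.32) in cdc10-v50, 0.46 (SD 0.39) in clr4d and 2.71 (SD 0.26) in wild type, of which 4 of 17 probes were saturated. Wild type then changed by -1.46 to its 50 to 55 kb step, whereas cdc10-v50 was 1.83 (SD 0.14) in that step.

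At the left end of chromosome II the contrast between cdc10-v50 and wild type was widest. Going inward from 50 kb, the step means in cdc10-v50 were 1.82, 0.58, 1.26, 1.32, 1.05, 1.48, 1.54, 1.97, 0.75 and 0.23. In clr4d they were 0.49, -0.38, 0.21, 0.08, -0.39, 0.29, 0.43, 0.89, 0.54 and -0.18. In wild type they were 0.74, 0.35, 0.30, 0.30, 0.07, 1.04, 0.59, 0.72, 0.03 and -0.20. As at the left end of chromosome I, cdc10-v50 dipped to arm level at 55 to 60 kb (0.58, SD 0.48), was above it from 60 to 90 kb, and was at it from 90 kb. In the dip 9 of 16 probes at the left end of chromosome I and 5 of 16 here carry an unexplained extra mark in their names. Without marked probes the left end of chromosome I first reached arm level further in, as given below. In wild type 75 to 80 kb (1.04, SD 0.61) was the one step above arm level, and 4 of its 17 probes were saturated. In clr4d the one such step was again 85 to 90 kb (0.89, SD 0.32), only just above its arm level of 0.88. Further in, cdc10-v50 was above arm level again in an unbroken run from 105 to 120 kb (1.36, 0.82 and 1.09, the second only just above) and from 135 to 145 kb (1.1 and 0.90).

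The right end of chromosome II had the fewest cdc10-v50 steps above arm level, 3 of 9, against 7 or 8 at the other ends. Its step means in cdc10-v50, from 50 to 90 kb, were 1.70, 2.11, 0.41, -0.43, -0.05, 0.61, 0.97 and 0.10. In clr4d they were 0.51, 0.63, -0.44, -0.33, -0.57, -0.19, 0.19 and -0.31. In wild type they were 0.85, 1.09, 0.10, -0.89, -0.17, 0.47, 0.59 and 0.24. All 3 groups had their highest step at 55 to 60 kb, and each was well below it in the next. The 90 to 95 kb step held only 2 probes and was not used, and the 95 to 100 kb step was -0.40 in cdc10-v50, -0.07 in clr4d and -0.39 in wild type. In cdc10-v50 arm level was reached at 60 kb, with 2.11 (SD 0.29) before it and 0.41 (SD 0.67) after it. The cdc10-v50 step at 80 to 85 kb was above arm level once more (0.97, SD 0.35). So was, beyond the flank, that at 130 to 135 kb (0.98, SD 0.28). The 65 to 70 kb step of wild type, at -0.89 (SD 0.33), was lower than all but 1.65% of arm windows.

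The array's right end of chromosome II is not the end of the chromosome in the reference assembly. The sources used here do not name the array's build, so each stretch was matched to the RefSeq assembly ASM294v3 by the shift at which input signal tracked GC content best. For this end the best match placed the array's end 30.8 kb inside the reference's end. The correlation at the best shift was 0.68, against 0.47 at the best shift well away from it, and the outer 50 kb gave nearly the same shift (-1700 against -1760 bp). Measured from the reference's end, this stretch is therefore 80.8 to 130.8 kb, and the step at which cdc10-v50 first reached arm level begins at 90.8 kb. At the other 3 ends at most 0.18 kb of the reference lay outside the array's end. Where the match put the array's end outside the reference, the distance was taken as 0. At the left end of chromosome I the best shift was -900 bp, and -120 bp for the outer 50 kb. Distances on chromosome I are thus array distances. By the same rule of the first step at arm level, the cdc10-v50 values of the other ends are 55 kb and 85 kb (left and right of chromosome I) and 55.2 kb (left of chromosome II). By the last step above arm level within the flank they are 90 kb and 95 kb on chromosome I and 90.2 kb and 115.8 kb on chromosome II, left before right. The 4 ends thus do not share 1 distance under either rule. Within the flank, wild type last stood above arm level up to 70 kb (left) and 95 kb (right) on chromosome I and up to 80.2 kb (left) and 90.8 kb (right) on chromosome II. Further in it was above arm level again at both right ends, at 115 to 125 kb and 145 to 150 kb of chromosome I and at 130 to 135 kb of chromosome II in array distance. The values pooled by array distance above mix this inner stretch with the other 3.

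Deletion of clr4 went with lower Psc3 signal in most of the flank. The median difference over probes, clr4d minus wild type, was -0.46 (SD 0.73), and clr4d was lower at 480 of 643 probes (arms 50.3%). By end it was -0.42 at the left and -0.85 at the right of chromosome I, and -0.18 at the left and -0.42 at the right of chromosome II, where the mean over probes was -0.27. Of the 39 steps 32 were lower in clr4d, where 46.2% of arm windows were lower, and 4 were at least 2-fold lower, where 0.296% of arm windows were. None was 2-fold higher. All 10 steps of the right end of chromosome I were lower in clr4d.

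The steps with the largest deficit in clr4d were 50 to 55 kb at the right end of chromosome I, with -0.06 in clr4d and 1.25 in wild type, 60 to 65 kb at the left end of chromosome I, with -0.29 and 0.91, and 65 to 70 kb at the right end of chromosome I, with 0.09 and 1.20. The differences were -1.30 (SD 0.82), -1.20 (SD 0.90) and -1.11 (SD 0.55), and wild type was higher at 17 of 17, 16 of 17 and 16 of 17 probes. The first step held 1 saturated probe and the second 4, so the deficits there are minimum values. The 3 steps in which clr4d was highest relative to wild type were 65 to 70 kb at the right end of chromosome II (difference 0.61, SD 0.85), 90 to 95 kb at the left end of chromosome II (0.51, SD 0.60) and 95 to 100 kb at the right end of chromosome II (0.33, SD 0.86). Each of these was smaller than its SD between probes.

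In cdc10-v50 cells, held in G1, the signal was higher than in wild type over most of the same stretch. The median difference, cdc10-v50 minus wild type, was 0.57 (SD 0.58), and cdc10-v50 was higher at 483 of 618 probes (arms 51.6%). By end it was 0.69 at the left and 0.37 at the right of chromosome I, and 0.85 at the left and 0.29 at the right of chromosome II, and with loess the values of the right ends became 0.20 and 0.13. Of the 39 steps 32 were higher in cdc10-v50, where 54.7% of arm windows were higher, and 5 were at least 2-fold higher, where 0.0423% of arm windows were. None of the 39 was 2-fold lower in cdc10-v50, as were 0.0846% of arm windows. At the left end of chromosome II all 10 steps and 146 of 154 probes were higher in cdc10-v50.

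The largest excess in cdc10-v50 lay at 70 to 75 kb of the left end of chromosome I, with 1.76 in cdc10-v50 and 0.34 in wild type, a difference of 1.43 (SD 0.36) that all 15 probes shared. At 85 to 90 kb of the left end of chromosome II the values were 1.97 in cdc10-v50 and 0.72 in wild type, a difference of 1.25 (SD 0.26) shared by 16 of 16 probes. At 50 to 55 kb of that end the difference was 1.13 (SD 0.60). Neither of the first 2 steps held a saturated probe. The 3 steps with cdc10-v50 lowest relative to wild type all lay on chromosome I: 90 to 95 kb on the left (-0.36, SD 0.31, with 0 of 16 probes higher in cdc10-v50), and 90 to 95 kb (-0.25, SD 0.22) and 85 to 90 kb (-0.23, SD 0.22) on the right.

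The mutant arrays, which share a scan setting and software version, differed from each other more than either did from wild type. The median of cdc10-v50 minus clr4d was 0.91 (SD 0.73), and cdc10-v50 was higher at 574 of 619 probes (arms 51.2%). By end it was 0.96 at the left and 1.04 at the right of chromosome I, and 1.03 at the left and 0.58 at the right of chromosome II. Of 39 steps 37 were higher in cdc10-v50 (background 49.5%), 19 of them at least 2-fold (background 0.169%). The largest was 60 to 65 kb at the left end of chromosome I, with 1.84 in cdc10-v50 and -0.29 in clr4d, a difference of 2.13 (SD 0.63) shared by 17 of 17 probes. The 3 comparisons share arrays and are not independent of each other.

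Each channel was also taken alone, as log2 of its processed signal minus the median of that channel over arm probes. The ChIP channel Cy5 had a flank median of 0.65 in cdc10-v50, -0.64 in clr4d and -0.05 in wild type. The input channel Cy3 had -0.51 in cdc10-v50, -0.72 in clr4d and -0.60 in wild type. Input was thus below its arm median in all 3 groups, by amounts that differed less than the ChIP signal did, and a low input alone raises a ratio. In wild type the pooled ChIP signal of the flank was no higher than that of the arms while its input was lower. By end, wild-type Cy5 was 0.31 at the right end of chromosome I (0.46 with normexp), and it was below the arm median at the other 3 ends.

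Between groups the ChIP channel changed more than the input. For cdc10-v50 minus wild type, Cy5 was higher in 38 of 39 steps (58.1% of arm windows) with a median step difference of 0.82, and the median for Cy3 was 0.18. For clr4d minus wild type, Cy5 was lower in 32 of 39 steps (50% of arm windows) with a median of -0.51, and the median for Cy3 was -0.11. The change in Cy5 was larger in size than that in Cy3 in 31 steps of 39 for cdc10-v50 minus wild type, 29 for clr4d minus wild type and 35 for cdc10-v50 minus clr4d. Over arm windows this share was 66.5%, 57.6% and 61.7% in the same order. At probes not saturated in wild type the ratio differed from wild type by 0.60 in cdc10-v50 (576 probes) and by -0.44 in clr4d (598 probes), close to the values over all probes.

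**Figure D2:**
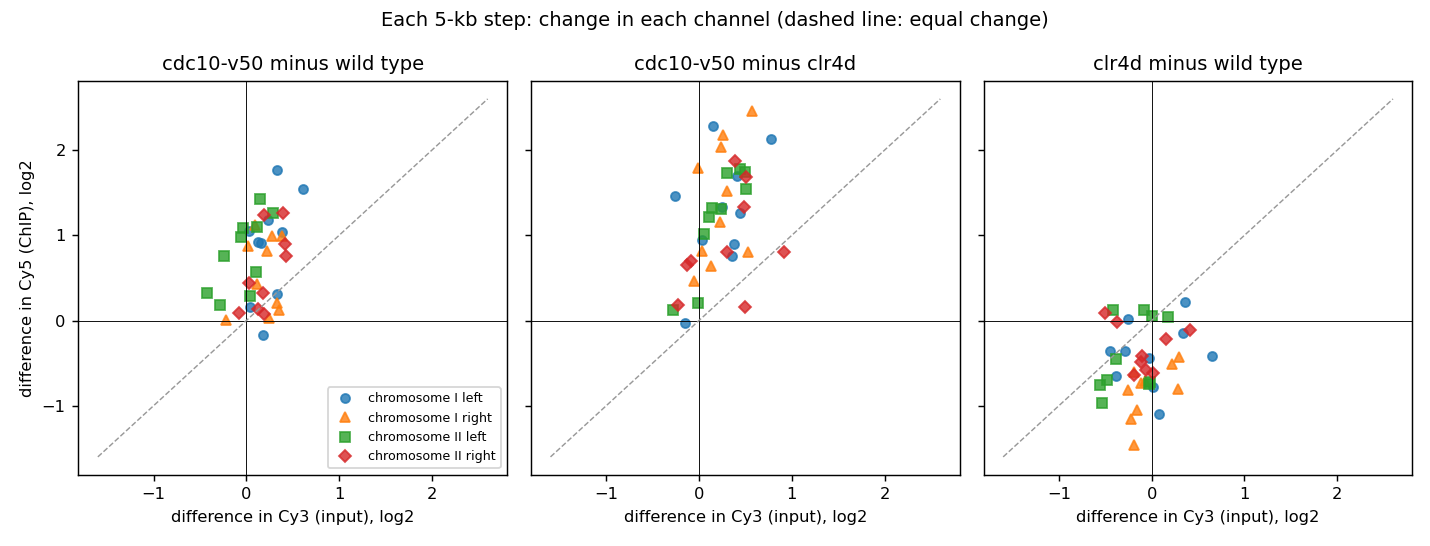
Difference of the ChIP channel (Cy5, vertical axis, log2) against that of the input channel (Cy3, horizontal axis, log2) in each 5-kb step with at least 5 probes, for 3 pairs of arrays and 4 ends (marker shapes). Steps on the dashed line changed equally in both channels. For cdc10-v50 minus wild type 38 of 39 points lie above 0 on the Cy5 axis, and for clr4d minus wild type 32 lie below it.

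Single steps show both channels at the places where cdc10-v50 reached arm level inward of its long runs. At the left end of chromosome I, Cy5 in cdc10-v50 was 1.01 at 85 to 90 kb and 0.15 at 90 to 95 kb, while Cy3 was -0.54 and -0.29. In clr4d the Cy5 values of those steps were 0.11 and 0.18, and in wild type 0.09 and 0.32. The cdc10-v50 boundary there was thus a change in the ChIP channel that the other arrays did not show. On the left of chromosome II, Cy5 in cdc10-v50 was 1.40 at 85 to 90 kb and -0.04 at 90 to 95 kb, while Cy3 was -0.57 and -0.79. That boundary too lay in the ChIP channel, but the other arrays fell there as well, by less. Their Cy5 values in these steps were 0.09 and -0.24 in clr4d, and -0.03 and -0.36 in wild type. Wild-type Cy3 was -0.72 and -0.36, and its ratio had its steepest fall of that end there, from 0.72 to 0.03. Across the 85 kb boundary of the right end of chromosome I, Cy5 in cdc10-v50 was 0.80 at 80 to 85 kb and 0.79 at 85 to 90 kb. Cy3 in cdc10-v50 was -0.21 and 0.36 in these steps, in clr4d -0.43 and 0.42, and in wild type -0.32 and 0.12. Cy5 was -0.36 and 0.33 in clr4d and 0.38 and 0.76 in wild type. The input was thus higher in the inner step in all 3 groups, and the ChIP channel in clr4d and wild type only. At the right end of chromosome II, Cy5 in cdc10-v50 was 0.96 at 55 to 60 kb and 0.52 at 60 to 65 kb, while Cy3 was -1.15 and 0.11, so at that boundary the input differed more than the ChIP signal. Cy3 was also lower at 55 to 60 kb than at 60 to 65 kb in clr4d (-1.53 and -0.37) and in wild type (-1.34 and -0.31).

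The 5-kb means were compared with a finer description. A peak is here a run of 3 or more probes at a 3-probe running mean of at least 1, and runs within 1 kb were joined. There were 13 peaks touching the flank in cdc10-v50, 2 in clr4d and 17 in wild type. They covered 58.0% of its 200 kb in cdc10-v50, 3.45% in clr4d and 20.6% in wild type, and their median lengths were 12.3, 3.45 and 1.8 kb in that order. Counts and lengths depend on joining: without it there were 25 peaks with a median length of 3.6 kb in cdc10-v50, 3 with 2.4 kb in clr4d and 20 with 1.95 kb in wild type. The covered share was thus the clearer difference between groups. On the arms 5.26% of probes lay in such peaks in cdc10-v50, 6.68% in clr4d and 6.38% in wild type, against 59.6%, 3.57% and 21.4% of the flank's probes.

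In cdc10-v50 the longest blocks inside the flank ran from 59.1 to 80.1 kb at the left end of chromosome I, with a height (highest running mean) of 2.81, and from 75.6 to 92.1 kb at the left end of chromosome II, with a height of 2.22. On the right of chromosome I a single block ran from 0.3 kb to 71.7 kb. The highest wild-type peaks within the left ends stood inside the cdc10-v50 blocks: 59.1 to 62.1 kb on chromosome I, with a height of 2.38, and 75.6 to 77.4 kb on chromosome II, with a height of 2.01, each with 4 saturated probes. Over the first the mean ratio was 2.10 in cdc10-v50, -0.09 in clr4d and 1.61 in wild type. Over the second it was 1.62 in cdc10-v50, 0.20 in clr4d and 1.66 in wild type.

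The outermost peaks of the left ends cross the 50 kb edge in cdc10-v50, from 30.6 to 51.6 kb on chromosome I (height 4.28) and from 37.5 to 54 kb on chromosome II (height 2.69). In wild type the second peaks of the left ends lay at 68.1 to 69.9 kb on chromosome I (height 1.29) and at 47.7 to 51 kb on chromosome II (height 1.54). At the right end of chromosome I the 2 highest peaks ran from 0.3 to 71.7 kb (height 5.22) and from 74.7 to 82.5 kb (1.69) in cdc10-v50, and from 0.6 to 52.5 kb (3.41) and from 55.5 to 61.2 kb (1.64) in wild type. In both groups the heights of the first of these come from the outer 50 kb. At the right end of chromosome II they ran from 48.9 to 61.2 kb (2.41) and from 80.1 to 83.7 kb (1.38) in cdc10-v50, and from 54.9 to 59.1 kb (1.32) and from 49.2 to 51.3 kb (1.26) in wild type. The clr4d array had no peak within the flank at either right end.

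Of the 13 cdc10-v50 peaks 9 (69.2%) overlapped a wild-type peak by 1 bp or more, and of the 17 wild-type peaks 15 (88.2%) overlapped one of cdc10-v50. Over peaks of the arms the same shares were 66.5% and 68.8%, so the first lay near its background, and cdc10-v50 peaks cover a far larger part of the flank than of the arms. The 2 wild-type peaks outside the cdc10-v50 peaks lay at 93.3 to 94.5 kb and 96.9 to 97.8 kb of the left end of chromosome I, with heights of 1.16 and 1.14. Of the 17 wild-type peaks 2 overlapped a clr4d peak of the flank, and 1 more, the block that runs in from the right end of chromosome I, met a clr4d peak in the outer 50 kb (17.6% together, against 66% of arm peaks). Both clr4d peaks lay near 90 kb of a left end, at 84.9 to 89.4 kb of chromosome I (height 1.39) and at 88.8 to 91.2 kb of chromosome II (height 1.85), and both overlapped a peak in each other group. Over the peak on chromosome II the mean ratio was 1.87 in cdc10-v50, 1.5 in clr4d and 0.74 in wild type.

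**Figure D3:**
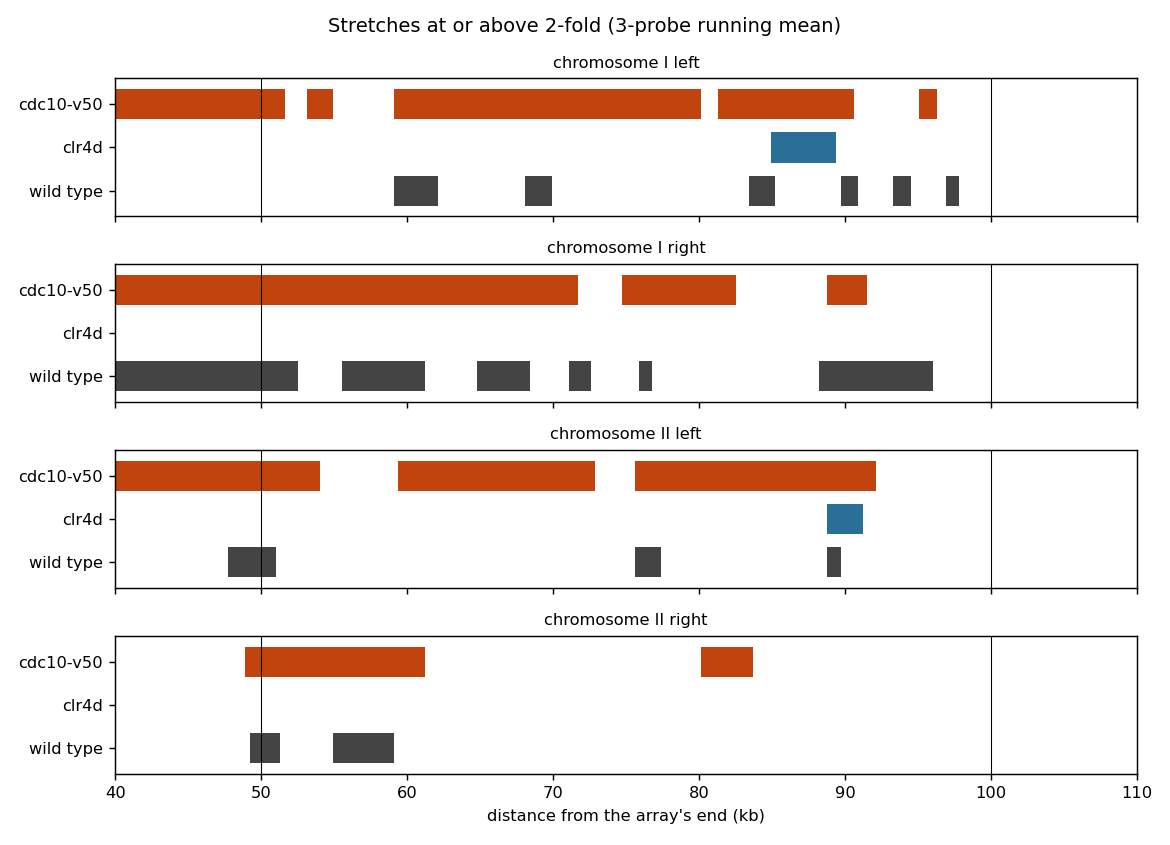
Runs of 3 or more probes with a 3-probe running mean of at least 2-fold, drawn to scale against distance from the array's end, for cdc10-v50, clr4d and wild type from top to bottom at each of 4 ends. Vertical lines mark 50 and 100 kb. Blocks cover 58.0% of the flank in cdc10-v50, 3.45% in clr4d and 20.6% in wild type.

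The shape of the profile across steps was shared in part. Over the 39 steps the ratios correlated at r = 0.75 between cdc10-v50 and wild type, 0.43 between clr4d and wild type and 0.55 between cdc10-v50 and clr4d. The same pairs gave 0.88, 0.81 and 0.83 over the arm windows. These are descriptions across positions of single arrays, which share probe sequence and base composition. Between the left ends of chromosomes I and II the 10 step values correlated at 0.61 in cdc10-v50, 0.54 in clr4d and -0.28 in wild type. Over the other pairs of ends r ranged from -0.40 to 0.59 in cdc10-v50, -0.28 to 0.22 in clr4d and -0.49 to 0.54 in wild type. The 0.59 was between the right ends of chromosomes I and II, whose matching stretches share 0% of 25-base words. The matching stretches of the reference share 4.35% of the 25-base words of the left end of chromosome I and 4.88% of those of the left end of chromosome II, against at most 0.13% for any other pair of ends. Probes that match both left ends read DNA from both, and the part of this in the likeness of their profiles was not tested. Of the 644 probe names 73 carry an extra mark that the sources used here do not explain, 34 of them at the left end of chromosome II.

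Genes could be named only where array positions match the reference. The stretch used was 50 to 80 kb of the left end of chromosome II. Over and around it 8 overlapping pieces of 20 kb fitted best at shifts between -120 and 60 bp, with correlations of 0.47 to 0.74. The best shifts of the other 3 ends were -900, 4340 and -1760 bp. Most of the 8 pieces reached beyond the stretch from 50 to 80 kb. On this stretch lie 11 protein-coding genes and 2 pseudogenes, and 7 protein-coding genes have at least 3 probe centres inside. Of these 7, 5 had a mean of at least 2-fold in cdc10-v50, 0 in clr4d and 2 in wild type. Among runs of 4 neighbouring arm probes, about the size of these genes, 5.23%, 6.4% and 6.34% did in the same order of groups. The medians of the 7 means were 1.38 in cdc10-v50, 0.12 in clr4d and 0.53 in wild type. In cdc10-v50 5 of the 7 were higher than in wild type, and in clr4d 6 of the 7 were lower than in wild type, where 53% and 48.9% of the arm runs were. These counts use the mean difference over probes used on both arrays. For SPBPB21E7.09 that was -0.01 in cdc10-v50 minus wild type. Its separate means were 1.79 over 4 probes in cdc10-v50 and 1.75 over 5 in wild type.

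The outermost of these genes is grt1 (SPBPB8B6.04C, chromosome II 47369 to 51181 in ASM294v3), which encodes a transcription factor and straddles the 50 kb edge. Its 3 probes inside the flank averaged 2.44 in cdc10-v50 (SD 0.06, 2 probes used), 0.51 in clr4d (SD 0.08) and 1.24 in wild type (SD 0.12). Inward of it the dip at 55 to 60 kb holds fex2 (chromosome II 55751 to 57120), the fluoride export channel of the plasma membrane. It averaged 0.32 in cdc10-v50 (SD 0.16), -0.24 in clr4d (SD 0.09) and 0.38 in wild type (SD 0.18). The cdc10-v50 and wild-type values of fex2 differed by less than the SD between probes, and clr4d was the lowest. Of its 25-base words 74.7% occur elsewhere in the reference as well, and 3 of its 4 probes carry the extra mark, so signal from other copies cannot be told apart from its own.

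The next 4 genes hold no 25-base word that occurs elsewhere in the reference. The enolase gene eno102 (chromosome II 58136 to 59690) averaged 0.74 in cdc10-v50 (SD 0.23), -0.57 in clr4d (SD 0.40) and 0.53 in wild type (SD 0.26). SPBPB21E7.11 (61526 to 62956), an uncharacterized protein gene that overlaps a shorter one, averaged 1.24 in cdc10-v50 (SD 0.23), 0.51 in clr4d (SD 0.49) and 0.19 in wild type (SD 0.06). It was the one gene of the 7 in which clr4d stood above wild type, by less than the SD between its probes in clr4d. The catechol O-methyltransferase gene cmt2 (64487 to 65551) averaged 1.45 in cdc10-v50 (SD 0.16), 0.12 in clr4d (SD 0.12) and 0.63 in wild type (SD 0.04). The phenazine biosynthesis family gene aes1 (70132 to 71310) averaged 1.38 in cdc10-v50 (SD 0.39), -0.35 in clr4d (SD 0.18) and 0.34 in wild type (SD 0.13). In cmt2 and aes1 the 3 groups were separated by more than these spreads.

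The innermost gene of the stretch is SPBPB21E7.09 (76296 to 77625), annotated as an L-asparaginase, which lies under the wild-type peak at 75.6 to 77.4 kb. It averaged 1.79 in cdc10-v50 (SD 0.18), 0.30 in clr4d (SD 0.45) and 1.75 in wild type (SD 0.61). It was the gene of the 7 with the highest wild-type mean, and 4 of its 5 probes were saturated there, so the wild-type value is a minimum. Per probe the difference clr4d minus wild type averaged -1.46 (SD 1.06). With positions moved by 300 bp either way it was -0.98 and -1.79, so a 2-fold difference was not reached at every position tried. Of its 25-base words 63.7% occur elsewhere in the reference, and 4 of its 5 probes carry the extra mark, so here too signal from other copies cannot be told apart.

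**Figure D4:**
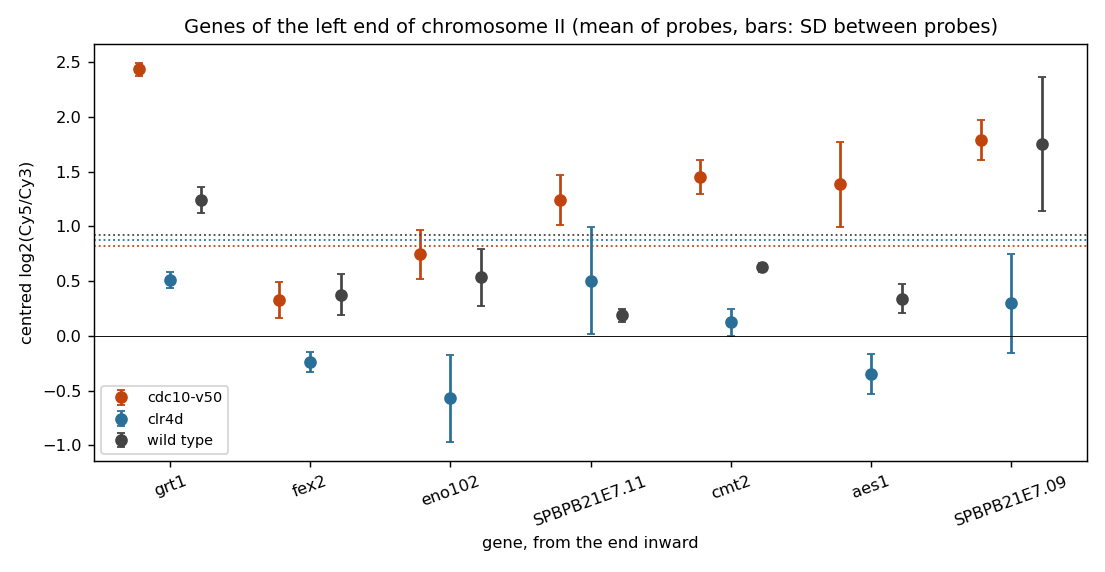
Mean centred log2(Cy5/Cy3) over the probes of each of the 7 protein-coding genes with at least 3 probes on the matched stretch of the left end of chromosome II, in order from the end inward, for cdc10-v50, clr4d and wild type. Bars are the SD between probes of 1 array and dotted lines the arm levels. In cdc10-v50 5 genes are above 1, in clr4d 0 and in wild type 2.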

How the data were processed

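Fixation used paraformaldehyde (30 min at 18 °C) and dimethyl adipimidate (45 min), per the labels' protocols, and ChIP and input DNA were labelled with Cy5 and Cy3. Per the file headers, Agilent Feature Extraction 11.0.1.1 (wild type) and 11.5.1.1 (clr4d, cdc10-v50) gave the deposited processed intensity of each channel, background-subtracted and dye-normalized, with unnormalized median and background intensity, flags, and red over green as a log10 ratio. The authors' deposited value table holds log2 of green over red, the opposite sign, uncentred (medians 0.06 in cdc10-v50, 0.04 in clr4d and -0.17 in wild type). It equals minus the scanner ratio within 0.001 on 41513, 41551 and 41551 probes in that order.

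Here log2(red/green) of processed intensity was centred on the median genome probe, without loess or quantile steps. Control and non-uniform spots were left out, and saturated spots kept. Arm windows leave out 100 kb at each end of chromosomes I and II, 50 kb at those of chromosome III, centromeres and the mating-type region. Differences are means per probe in steps and genes and medians per probe over ends. Steps, peaks and genes follow the definitions given above. The named steps are the 3 largest differences each way, and the named peaks are the 2 highest of each end and group. Other named steps and the 2 wild-type peaks outside the cdc10-v50 peaks were chosen after their values were seen. All 7 genes with 3 or more probes are named. Members and lists were chosen with earlier results of these data known. No test was run, since each group has 1 array. That number limits the precision of every value. Runs of 4 neighbouring arm probes stand in for genes as a background, an addition made after seeing the data. Step, drop and peak calling was tried on simulated data with independent noise and a single clean drop. These profiles dip and recover, so that trial does not show how reliable the distances are here. The alternatives were normexp on median signals with an offset of 50 (the design named mean signals), loess, the deposited table, spot and probe filters, other arm levels and step sizes, and other peak settings. Per-sample columns other than those described numbered 0. Python 3.11.15, numpy 2.4.6, pandas 2.3.3, matplotlib 3.10.9, R 4.3.3 and limma 3.58.1 were used.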

Additional observations from a re-analysis of the deposited data

How the results depend on the processing

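No paired analysis was possible because each group has 1 array and the shared number 1 is only a name. Under the alternatives run on them, the 15 levels, 15 differences and 30 channel levels each moved by less than the SD between probes. The pooled clr4d level, near 0, ranged from -0.0025 to 0.15. Of the values by end, some moved by over 1.5 times. The wild-type level of 0.41 at the left end of chromosome II became 0.11 with normexp and 0.63 with loess, and that of 0.25 at its right end became 0.14 with normexp. The cdc10-v50 minus wild type difference became 0.20 (right of chromosome I) and 0.13 (right of chromosome II) with loess, and clr4d minus wild type at the right end of chromosome II became -0.27 as a mean. Levels of clr4d at 3 ends, each near 0, also did, as did Cy5 levels: that of wild type over the 4 ends (-0.05, and -0.19 without saturated probes), at the left (-0.10 and -0.24 likewise) and right (0.31, and 0.46 with normexp) of chromosome I, and that of cdc10-v50 at the right of chromosome II (0.10, and -0.04 without saturated probes). The pooled difference ranged from 0.41 to 0.63 for cdc10-v50 minus wild type, from 0.82 to 1.16 for cdc10-v50 minus clr4d and from -0.52 to -0.43 for clr4d minus wild type.

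The distance at which arm level is reached depends on its definition: 30 of 156 alternative distances differed by more than 5 kb. At the left end of chromosome I the cdc10-v50 value of 55 kb became 90 kb with loess, without marked probes, at the 90th percentile, with 10-kb steps and by the last step above arm level, and 100 kb at the median plus 1 SD. By the last step, clr4d gave 90 kb and wild type 70 kb there. At the right end of chromosome I the cdc10-v50 value of 85 kb became 95 kb at the median plus 1 SD and by the last step. The wild-type value of 60 kb became 50 kb with normexp, 80 kb with loess and with 10-kb steps, 85 kb at the 90th percentile, 95 kb at the median plus 1 SD and by the last step, and 72.5 kb with steps moved by 2.5 kb. At the left end of chromosome II the cdc10-v50 value of 55 kb became 95 kb at the median plus 1 SD, 90 kb by the last step and with 10-kb steps, and 92.5 kb with moved steps, and by the last step clr4d gave 90 kb and wild type 80 kb. At the right end of chromosome II the last step gave 85 kb in cdc10-v50, the median plus 1 SD gave 60 kb in clr4d, and wild type gave 60 kb with loess, at the 90th percentile, at the median plus 1 SD, by the last step and with 10-kb steps. The cause was not tested.

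Of 30 alternative peak counts 6 moved by more than 1.5 times: 25 in cdc10-v50 without joining, 5 in clr4d with loess and at a threshold of 0.8, 1 in clr4d at 1.5, and 26 with normexp and 4 at a threshold of 1.5 in wild type. Saturation limits the wild-type heights, and no value has a replicate.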
